A study of Mus musculus with 9 samples.

Results

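Neutrophils of the lung were compared with neutrophils of the bone marrow by RNA sequencing. The comparison takes 6 of the 9 libraries in the study, 3 from lung and 3 from bone marrow, chosen by the tissue named in the labels. The other 3 libraries, from blood, are given here as levels beside each gene and enter the same model. All 9 came from wild type mice of the C57BL/6 strain, with no treatment named, and the cells were sorted by flow cytometry. Polyadenylated RNA was sequenced. The sources used here do not give the sort markers, the age and number of the mice, or how the lung was dispersed, so p-values measure the spread between these libraries. The design text calls the 3 libraries of each tissue biological replicates.

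Neutrophils are granulocytes that are made in the bone marrow, enter the blood when mature, and lodge in large numbers in the small vessels of the lung. Their granule proteins are made in sequence during maturation in the marrow. Primary granules hold myeloperoxidase and serine proteases, secondary granules hold lactoferrin and other antimicrobial proteins, and tertiary granules hold gelatinase. Transcription of most granule genes ends before the cell leaves the marrow. Stimulated neutrophils switch on genes driven by the transcription factor NF-kB, which include cytokines, adhesion molecules and the factor's own inhibitors.

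Levels are in CPM, the read count relative to the library's total after edgeR's TMM scaling, and values of 3 libraries follow replicates 1, 2 and 3. Fold changes are lung over bone marrow on the log2 scale, as estimate ± SE. They were tested two-sided with edgeR's quasi-likelihood test and Benjamini-Hochberg adjustment over 13510 genes, and a gene was called at an adjusted p under 0.05. By this rule 5158 genes (38.2% of those tested) were called, 2108 higher in lung (15.6%) and 3050 lower (22.6%). The rises were larger. The median change was 1.90 among genes called higher and -1.09 among genes called lower, and 999 rises against 486 falls reached 4-fold. The 3 lung libraries did not overlap the 3 marrow libraries in 6614 genes (49.0%). Both directions of change ran across the whole range of levels, as the plot of fold change against level shows, but rises were more often at low level. A mean of 20 CPM in the higher of the 2 tissues was reached by 890 of the 2108 rises and 2260 of the 3050 falls. Upper-quartile scaling moved the median of all genes from 0.06 to 0.38, and the share of calls that were rises from 40.9% to 59.3%. That share was 52.0% with RLE size factors, 54.7% with DESeq2, 33.5% with limma-voom, and 48.8% with no filter on low counts. It was 48.9% and 51.0% on log2(FPKM + 1) and log2(FPKM + 0.1), and 54.4% with lung replicate 3 as the lone lung library.

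**Figure D1:**
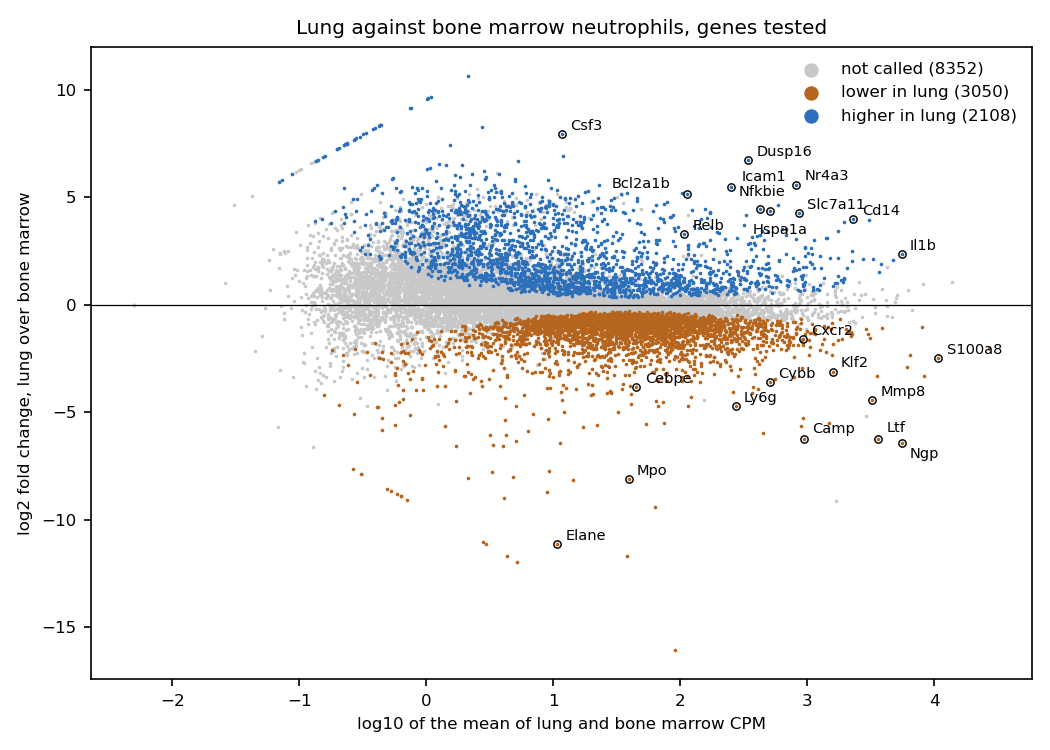
Log2 fold change of lung over bone marrow (y axis) against log10 of the mean CPM of both tissues (x axis) for the 13510 genes tested, with 2108 genes called higher in blue, 3050 called lower in brown, and genes named in the text circled. Granule genes such as Ngp, Ltf and Camp lie near -6 at high level, and Dusp16, Nr4a3, Icam1 and Csf3 lie above 5.

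Library totals ran from 42045548 to 56796219 reads, so that 3 reads equalled 0.0528 to 0.0714 CPM. The libraries carried the labelled cell type. The summed level of 22 neutrophil markers was 111247, 121522 and 157513 CPM in bone marrow and 42539, 44235 and 77809.6 CPM in lung, with S100a8 at 2530 to 4636 CPM in lung. Lung replicate 3 stood apart from the other lung libraries. Its neutrophil markers were the highest of the 3, while 25 fibroblast and smooth muscle markers summed to 4526, 3044 and 898 CPM in lung against 895 to 1443 CPM in marrow. The 24 alveolar and airway epithelium markers summed to 1199, 521 and 309.6 CPM in lung and 214 to 312 CPM in marrow, and the 23 endothelium markers to 239, 181 and 67.7 and 43.8 to 49.4 CPM. Transcripts of lung tissue cells were thus lower in lung replicate 3 than in replicates 1 and 2. Every marrow library carried more erythroid transcripts (sums of 8919, 9733 and 1774 CPM) than any lung library (54.7 to 452 CPM). The plot of marker sums shows these gaps between libraries. Not every shift in replicate 3 was confined to lung. Neutrophil sums were also highest in replicate 3 of marrow and blood. B cell sums were 57.7, 106 and 76.5 CPM in replicate 3 of marrow, blood and lung. The other libraries of these tissues had at least 124, 594 and 597 CPM. Erythroid sums, and those of T and NK cells, were likewise lowest in replicate 3 of each tissue. Fibroblast and epithelium sums were instead highest in replicate 3 of marrow and blood. The cause was not tested.

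**Figure D2:**
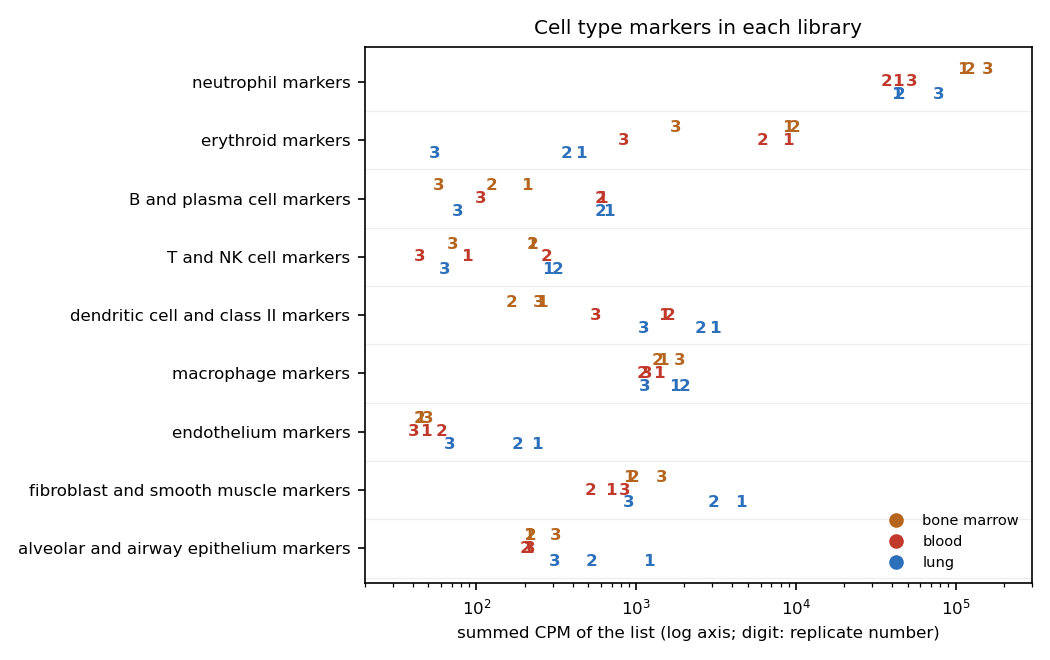
Summed CPM (log x axis) of 9 marker lists in each library, with the digit giving the replicate number and the colour the tissue. Lung replicate 3 lies nearest the marrow libraries for endothelium, fibroblast and epithelium markers and highest among lung libraries for neutrophil markers.

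Secondary granule genes had the largest share of lower members among the 26 pathway lists. Of 21 members tested, 18 were lower in lung (beside 22.6% of all genes) and none higher, with a median of -2.86 beside 0.06 for all genes. Ngp, which encodes neutrophilic granule protein (chr9:110419808-110423012, mm10), had 9975, 9943 and 13129.9 CPM in marrow against 89.1, 158 and 129.8 CPM in lung, 87.7-fold lower (log2 fold change -6.45 ± 0.36, adjusted p = 1.03e-05). Every marrow library was far above every lung library. Blood was at 196, 181 and 134 CPM, close to lung (lung over blood -0.44, adjusted p = 0.285). Ltf, the gene of the iron-binding protein lactoferrin (chr9:111019292-111042766), was at 6585, 6593 and 8308 CPM in marrow and 76.2, 93.6 and 116 CPM in lung, 75.1-fold lower (-6.23 ± 0.31, adjusted p = 9.14e-06). Camp, the gene of the antimicrobial peptide cathelicidin (chr9:109847377-109849456), was at 1568, 1775 and 2227 CPM in marrow and 18.3, 33.4 and 21.2 CPM in lung (-6.26 ± 0.35, adjusted p = 1.07e-05). These 3 genes lie within a short stretch of chromosome 9. Itgb2l, a gene related to the beta 2 integrin subunit, changed by -5.98 ± 0.29 (adjusted p = 9.14e-06). Mmp8, the neutrophil collagenase, was at 5378, 6105 and 7264 CPM in marrow, 468, 385 and 501 CPM in blood and 206, 239 and 410.3 CPM in lung (-4.45 ± 0.34, adjusted p = 3.32e-05). The smallest fall of the 18 was that of Cyba (-0.75 ± 0.24, adjusted p = 0.037), which was not called without blood replicate 1 (adjusted p = 0.138) and in all was called in 2 of 9 fits that each left out 1 library. Leaving out any 1 library left 17 or 18 members called lower, and lung replicate 3 as the lone lung library left 15 lower and 1 higher. Whether fewer cells of a maturing type or less RNA per cell lies behind a lower level cannot be told apart in bulk RNA.

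Promoter sequences of 2 of these genes are shown because C/EBP-epsilon, whose gene also fell, is a known regulator of secondary granule genes. The windows run from 250 bases before to 50 after the start site (RefSeq, GRCm38.p6, gene strand, 5′ to 3′), and capitals mark matches to the C/EBP-type letters TTNNGNAA on either strand. Ltf lies in chr9:111019042-111019341 on the plus strand, with matches beginning 217 and 75 bases before the start site. Ngp lies in chr9:110419558-110419857 on the plus strand, with matches 138, 102 and 11 bases before it.
Ltf: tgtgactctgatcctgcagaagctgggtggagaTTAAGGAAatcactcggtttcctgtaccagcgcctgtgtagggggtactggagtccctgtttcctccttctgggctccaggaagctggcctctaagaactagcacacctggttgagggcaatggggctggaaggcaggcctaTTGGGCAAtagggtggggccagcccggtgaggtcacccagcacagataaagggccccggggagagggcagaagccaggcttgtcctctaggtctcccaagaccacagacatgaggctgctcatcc
Ngp: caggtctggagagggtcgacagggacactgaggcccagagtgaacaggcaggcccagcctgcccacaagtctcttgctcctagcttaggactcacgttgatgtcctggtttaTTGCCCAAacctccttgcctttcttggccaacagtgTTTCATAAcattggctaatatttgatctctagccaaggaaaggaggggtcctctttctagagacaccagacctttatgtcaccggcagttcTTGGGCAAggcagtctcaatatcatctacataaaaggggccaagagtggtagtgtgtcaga
Such a match was present in 10 of the 15 lower secondary granule genes with a window, and in 36.6% of the 10669 tested genes that had one. Camp, Ceacam10, Ltb4r1, Pglyrp1 and Cyba held none in their windows. Ltf and Ngp were picked for their matches, and a match is not evidence of binding. A link to the lower level of the C/EBP-epsilon gene was not tested.

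Primary granule genes were mostly lower as well, 9 of 15 with 3 higher, beside 22.6% and 15.6% of all genes. Their median was -1.06. Elane, the neutrophil elastase gene, had 1856, 923 and 95 reads in marrow and 1, 0 and 0 reads in lung. Mpo, which encodes myeloperoxidase, had 6754, 3344 and 368 reads in marrow and 18, 24 and 0 in lung. Marrow replicate 3 held the fewest reads of both genes, and blood was near 0 too. Both were called (adjusted p = 0.000419 and 0.00215), but limma-voom gave adjusted p = 0.188 and 0.19. Serpinb1a, an inhibitor of these proteases, was at 163, 191 and 222 CPM in marrow and 19.5, 22.3 and 8.02 CPM in lung (-3.53 ± 0.40, adjusted p = 0.000234). Lyz2, the lysozyme gene, remained abundant in lung at 1229, 1564 and 1484 CPM against 9336, 10252 and 12596 CPM in marrow (-2.91 ± 0.24, adjusted p = 4.55e-05). Without 1 library 8 to 10 were lower, and the higher count dropped to 1 without bone marrow replicate 2 or 3 or lung replicate 1 or 2. Lung replicate 3 alone gave 1 higher and 4 lower, limma-voom 5 lower.

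Genes of tertiary granules and secretory vesicles split, with 8 of 18 lower and 3 higher, beside 22.6% and 15.6% of all genes. Mmp9, which encodes gelatinase B, was at 8882, 10283 and 12971 CPM in marrow and 1458, 1837 and 3106 CPM in lung (-2.33 ± 0.36, adjusted p = 0.00121), and blood lay between them at 3689, 3096 and 5293 CPM. Mmp25, a membrane-bound protease of neutrophils, was 9.24-fold lower (-3.21 ± 0.28, adjusted p = 6.67e-05), and Fpr2, a formyl peptide receptor, changed by -1.605 ± 0.21 (adjusted p = 0.000476). Cd14, the lipopolysaccharide co-receptor carried in secretory vesicles, went the other way. It stood at 319, 186 and 311 CPM in marrow, 249, 97.9 and 132 CPM in blood and 3855, 2887 and 6373 CPM in lung, 16.1-fold higher in lung than in marrow (4.01 ± 0.47, adjusted p = 0.000282), and was highest in lung replicate 3. The lower count was 3 with lung replicate 3 as the lone lung library and 5 without blood replicate 1.

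Cybb, the catalytic subunit of the NADPH oxidase that makes superoxide, was at 949, 912 and 954 CPM in marrow, 118, 122 and 74.8 CPM in blood and 70.3, 104 and 55 CPM in lung. The lung libraries were all below the marrow libraries, 12.3-fold on the fitted scale (-3.62 ± 0.30, adjusted p = 4.71e-05). Of 9 oxidase genes tested, 3 were lower (Cybb, Cyba and Rac2) and none higher, beside 22.6% and 15.6% of all genes. Their median was -0.55. Rac2, a small GTPase of the oxidase, fell from 2516, 2839.9 and 3608 to 1139, 1033 and 1688 CPM (-1.22 ± 0.28, adjusted p = 0.00874, or 0.0514 without blood replicate 1). With the replicate number as a block 7 oxidase genes were lower, as they were without lung replicate 3. With lung replicate 3 alone, or without blood replicate 1, only 1 was. Sums over the oxidase genes were 4765 to 7679 CPM in lung and 8651 to 11771 CPM in marrow.

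S100 proteins, stefins and annexins were lower in 12 of 20 genes and higher in 2, beside 22.6% and 15.6% of all genes. S100a8 and S100a9, whose products form calprotectin, stayed among the most abundant transcripts of lung neutrophils while falling 5.53-fold and 4-fold. S100a8 was at 16836, 16167 and 22016 CPM in marrow and 2530, 2789.5 and 4636 CPM in lung (-2.47 ± 0.32, adjusted p = 0.000447). For S100a9 marrow gave 35167, 42003 and 53535 CPM and lung 8888, 8545 and 15228 CPM (-2.001 ± 0.34, adjusted p = 0.00187). Stfa3, a cysteine protease inhibitor of the stefin family, was at 14.5, 18.6 and 20.1 CPM in marrow and 0.472, 0.518 and 0.323 CPM in lung (-5.33 ± 0.31, adjusted p = 1.31e-05). Its stefin neighbours Stfa2 and BC100530 changed by -3.18 and -3.05, and reads can be split between these near-identical genes. Anxa3, an annexin, changed by -3.004 ± 0.21 (adjusted p = 2.83e-05). Higher members numbered 2 by the test and 4 with the replicate block. They were 5 without blood replicate 3 or lung replicate 3, 5 with DESeq2, and 4 with RLE or upper-quartile scaling.

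Transcription factors of granulopoiesis were lower in 9 of 24 genes and higher in 2, beside 22.6% and 15.6% of all genes. Their median change was near 0. Cebpe, which encodes C/EBP-epsilon, stood at 73.5, 87.8 and 92.6 CPM in marrow, 20.8, 16.7 and 25.4 CPM in blood and 5.25, 4.31 and 8.17 CPM in lung. It was 14.3-fold lower in lung than in marrow (-3.84 ± 0.27, adjusted p = 2.83e-05) and also lower than in blood (-1.83, adjusted p = 0.0014). Klf5 was similar in shape, at 17.8, 18.5 and 17.6 CPM in marrow, 7.83, 6.43 and 7.93 CPM in blood and 2.05, 3.11 and 3.05 CPM in lung (-2.72 ± 0.21, adjusted p = 3.89e-05). Myb, a factor of proliferating progenitors, fell to 3.29, 3.93 and 1.07 CPM from 36.3, 27.7 and 9.38 CPM (-3.14 ± 0.77, adjusted p = 0.0125). Max, the partner of Myc, changed by -2.39 ± 0.47 (adjusted p = 0.00421). Higher members were 4 with the replicate block.

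Among the largest falls outside the pathway lists was Adpgk, an ADP-dependent glucokinase, with 1454, 1832 and 2034 CPM in marrow and 31.1, 43.6 and 31.2 CPM in lung (-5.65 ± 0.27, adjusted p = 9.14e-06). Chil5, a chitinase-like gene, was at 34.7 to 54.8 CPM in marrow and 0.672 to 1.29 CPM in lung. Gpr27, an orphan receptor, was at 17 to 26 and 0.159 to 0.345 CPM. Gp1bb, a platelet glycoprotein gene, was at 7.82, 11.4 and 81.3 CPM in marrow and 0.363, 0.458 and 1.12 CPM in lung, called by edgeR (adjusted p = 0.004) but not by limma-voom (adjusted p = 0.11). Hist2h2aa2, a histone gene with near-identical copies, had 1 read in each lung library against 2580 to 3710 reads in marrow. The deposited RSEM counts put it at a mean of 68.5 CPM in lung, so its change is uncertain. The lung level of Gapdh was likewise 383 CPM here and 962 CPM by RSEM.

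Ly6g, the surface antigen often used to identify mouse neutrophils, was 26.5-fold lower in lung. It stood at 418, 490 and 678 CPM in marrow, 22.9, 21.2 and 24.8 CPM in blood and 15.4, 17.4 and 27 CPM in lung (-4.73 ± 0.29, adjusted p = 1.62e-05). Of 23 maturation and trafficking receptors tested, 7 were lower and 4 higher, beside 22.6% and 15.6% of all genes. Cxcr2, the receptor for neutrophil-attracting chemokines, was at 1103, 1375 and 1687 CPM in marrow, 1345, 1464 and 2397 CPM in blood and 299, 423 and 661 CPM in lung. Lung was below both other tissues (against marrow -1.59 ± 0.35, adjusted p = 0.00769, and against blood -1.91, adjusted p = 0.00501). With lung replicate 3 as the lone lung library the adjusted p for lung against marrow was 0.234. Cxcr4, which retains neutrophils in the marrow and marks aged cells in blood, was at 826, 894 and 1074 CPM in marrow and 984, 1279 and 1827 CPM in lung. The groups overlapped, and the difference did not pass (0.55 ± 0.28, adjusted p = 0.155). Cxcr4 was called higher in 5 of 21 alternatives, none of them a fit that left out 1 library. Its log2 fold change was 1.25 with lung replicate 3 as the lone lung library. Csf3r, the receptor for granulocyte colony-stimulating factor, was at 4394, 4599 and 5388 CPM in marrow and 5209.6, 7223 and 10842 CPM in lung and did not pass (0.69 ± 0.31, adjusted p = 0.11, 0.031 with the block and 0.0497 without lung replicate 1).

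A pair of integrin genes moved in opposite directions. Itgam, the CD11b subunit, fell from 2791, 3236 and 3459.9 to 819.8, 1116 and 1975 CPM (-1.28 ± 0.32, adjusted p = 0.014), and was not called in 4 of the 9 fits that left out 1 library (adjusted p up to 0.0687, without blood replicate 1). Itga4, the alpha 4 subunit, rose from 106, 88.3 and 76.5 to 172, 256 and 339.9 CPM (1.503 ± 0.25, adjusted p = 0.00174), yet was lower than in blood, where it stood at 483, 491 and 539.7 CPM (lung over blood -0.98, adjusted p = 0.0176). The receptor list gave 7 higher genes with the replicate block, 9 with upper-quartile scaling and 12 with lung replicate 3 as the lone lung library. It gave 2 higher without bone marrow replicate 1 or 2 and 7 without lung replicate 1. The lower count was 1 with lung replicate 3 as the lone lung library, 3 without blood replicate 3, and 4 without blood replicate 1 or 2 or lung replicate 2.

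Of 30 chemoattractant receptors, 8 were higher and 7 lower, beside 15.6% and 22.6% of all genes. S1pr4, a sphingosine phosphate receptor, was at 110.3, 119.9 and 129 CPM in marrow, 39.9, 37.7 and 44 CPM in blood and 11.2, 14.7 and 6.08 CPM in lung (-3.49 ± 0.29, adjusted p = 5.02e-05), a step down at each tissue. Ltb4r1, the leukotriene B4 receptor, changed by -2.54 ± 0.22 (adjusted p = 6.39e-05). Ptafr, the platelet-activating factor receptor, rose from 368, 301 and 417 to 1277, 1627 and 2609.6 CPM (2.34 ± 0.35, adjusted p = 0.000961). Ccrl2, a chemerin-binding receptor, rose to 1811, 2204 and 3656 CPM from 409, 182 and 293 CPM (3.12 ± 0.75, adjusted p = 0.0111, or 0.0525 without bone marrow replicate 2). Ackr3, an atypical chemokine receptor also made by stromal cells, was at 16.5, 9.09 and 0.67 CPM in lung, lowest in replicate 3, where lung tissue markers were also lowest. Their part in its call (adjusted p = 0.0117) was not tested. Without bone marrow replicate 2 only 3 were higher, and 5 were without bone marrow replicate 3 or lung replicate 2.

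**Figure D3:**
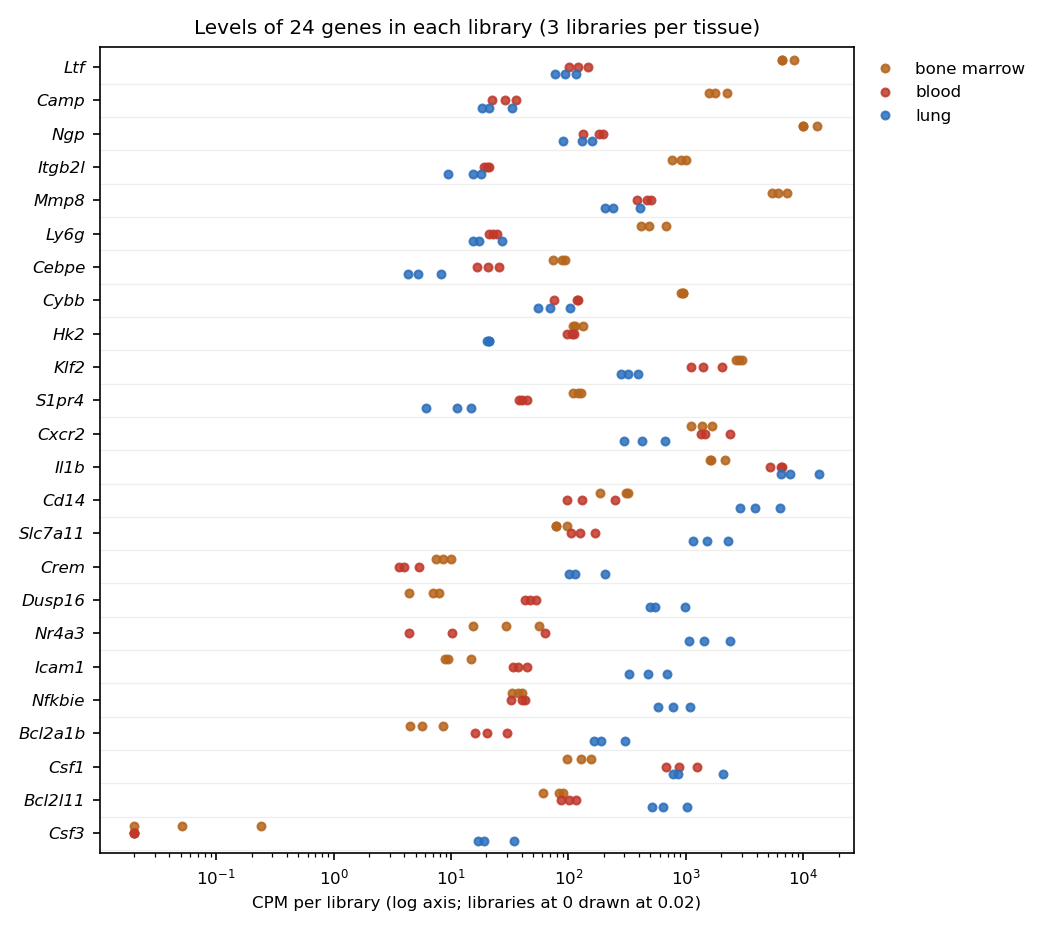
CPM per library (log x axis, libraries at 0 drawn at 0.02) of 24 genes, with 3 points per tissue for bone marrow, blood and lung. For Ltf, Camp, Ngp, Itgb2l, Ly6g and Cybb blood lies with lung, and for Dusp16, Nr4a3, Icam1, Nfkbie, Slc7a11 and Crem lung lies far above both other tissues.

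Genes of the NF-kB response had the largest share of higher members among the 26 lists. Of 36 tested, 26 were higher in lung (beside 15.6% of all genes) and 2 lower, with a median of 1.98, and in 24 of the 26 the highest lung level was in replicate 3, as in 42.4% of all genes called higher and 59.0% of those called lower. Icam1, an adhesion molecule that binds beta 2 integrins, was at 14.9, 9.47 and 8.92 CPM in marrow, 44.7, 33.9 and 37 CPM in blood and 325, 475 and 688 CPM in lung, 44.7-fold above marrow (5.48 ± 0.36, adjusted p = 2.27e-05). The lung libraries were each above every marrow and blood library. Bcl2a1b and Bcl2a1d, near-identical copies of the anti-apoptotic gene Bcl2a1 among which reads can be split, rose to 190.3, 165 and 305 and 59.7, 54.5 and 84.6 CPM. Their marrow levels were 5.7, 4.51 and 8.62 and 1.17, 1.18 and 3.22 CPM (5.13 ± 0.39 and 5.16 ± 0.44, adjusted p = 3.42e-05 and 5.87e-05). The third copy, Bcl2a1a, changed by 4.96. Birc3, a ubiquitin ligase of the pathway, rose from 189.5, 138 and 186 to 603, 716 and 1127 CPM (2.25 ± 0.28, adjusted p = 0.000352). Sod2, the mitochondrial superoxide dismutase, changed by 2.58 ± 0.33 (adjusted p = 0.000432). Without 1 library the higher count ran from 21 to 29 and the lower from 0 to 2, and with lung replicate 3 as the lone lung library it was 28 with none lower.

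Among these genes are the factor's own subunits and inhibitors, chosen here after their values were seen. Nfkb2, the p100 and p52 subunit, was at 90.7, 74.4 and 81.3 CPM in marrow, 149, 132 and 105 CPM in blood and 640, 639 and 1043 CPM in lung (3.24 ± 0.26, adjusted p = 4.04e-05). Relb, its partner, was at 22.6, 19.3 and 18.8 CPM in marrow and 174, 149 and 266 CPM in lung (3.28 ± 0.22, adjusted p = 2.6e-05). Nfkbie, the inhibitor I-kappa-B epsilon, was at 39.98, 33.3 and 37.2 CPM in marrow, 42.4, 40.6 and 32.3 CPM in blood and 576, 776 and 1081 CPM in lung (4.46 ± 0.27, adjusted p = 1.6e-05). Bcl3, an atypical member of the inhibitor family, was at 60.6, 62.4 and 81.1 and 351, 382 and 440.4 CPM (2.52 ± 0.21, adjusted p = 5.34e-05). All 4 were called in each of the 9 fits that left out 1 library.

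The promoters of Nfkb2 and Bcl3 are shown as examples that hold an NF-kB-type match, GGGNNTTNCC on either strand, in capitals. Nfkb2 lies in chr19:46304487-46304786 on the plus strand, with matches beginning 39, 11 and 10 bases before the start site, the last pair overlapping. Bcl3 lies in chr7:19822706-19823005 on the minus strand, with its match beginning at base 3 from the start site (same windows, RefSeq, GRCm38.p6).
Nfkb2: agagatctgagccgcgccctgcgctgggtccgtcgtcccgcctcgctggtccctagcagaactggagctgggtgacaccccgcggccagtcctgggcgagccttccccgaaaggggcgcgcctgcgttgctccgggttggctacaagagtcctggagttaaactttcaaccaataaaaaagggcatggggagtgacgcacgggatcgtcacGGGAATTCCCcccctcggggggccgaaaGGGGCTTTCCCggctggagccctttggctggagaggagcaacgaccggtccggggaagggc
Bcl3: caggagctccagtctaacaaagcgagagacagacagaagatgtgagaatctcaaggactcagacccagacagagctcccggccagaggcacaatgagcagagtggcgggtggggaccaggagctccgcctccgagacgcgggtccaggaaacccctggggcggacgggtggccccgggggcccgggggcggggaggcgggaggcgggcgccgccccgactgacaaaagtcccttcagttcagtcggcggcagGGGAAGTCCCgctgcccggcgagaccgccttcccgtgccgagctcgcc
These letters were present in 6 of the 23 higher NF-kB genes with a window, in 6.43% of tested genes and in 7.55% of all 1668 genes higher in lung with a window. Icam1 and Nfkbie held none in this window.

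Cytokine and chemokine genes were higher in 20 of 40 and lower in 4, beside 15.6% and 22.6% of all genes. Their median was 1.89. Csf3, which encodes granulocyte colony-stimulating factor, had the largest rise among genes of at least 20 CPM named by the selection rule. It had 10, 0 and 2 reads in marrow, none in any blood library, and 934, 966 and 1377 reads in lung, or 17, 19.3 and 34.2 CPM (7.93 ± 0.97, adjusted p = 0.000939). Il1b, the interleukin 1 beta gene, was already abundant in marrow at 1623, 1601 and 2167 CPM and reached 6407, 7772 and 13717 CPM in lung (2.37 ± 0.34, adjusted p = 0.000724), while blood stood at 5199, 6647 and 6515 CPM and did not pass against lung (adjusted p = 0.196). Il23a, a subunit of interleukin 23, was at 3, 0.627 and 2.63 CPM in marrow and 22.8, 33.5 and 42.2 CPM in lung (3.98 ± 1.17, adjusted p = 0.0269, or 0.0949 without bone marrow replicate 2). Tnf, the tumour necrosis factor gene, was at 115, 118 and 144 and 87.5, 128 and 165 CPM, with overlapping groups (0.02 ± 0.61, adjusted p = 0.985). Cxcl2, a neutrophil-attracting chemokine, was at 2228, 1766 and 1862 CPM in marrow and 6557, 3977 and 9084 CPM in lung. Every lung library was above every marrow library, but the difference did not pass (1.74 ± 0.76, adjusted p = 0.102), with blood spread over 235 to 3137 CPM in the same fit. It passed without blood replicate 1 (adjusted p = 0.0305).

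Some members of the cytokine list followed the lung tissue markers instead. Ccl22 was at 23.5, 19.7 and 2.76 CPM and Tnfsf13 at 8.7, 8.61 and 0.77 CPM in lung, both lowest in replicate 3. Both were called (adjusted p = 0.0344 and 0.0166). Ccl22 was not called with the replicate block (adjusted p = 0.122), and neither was Tnfsf13 without bone marrow replicate 3 (0.0539). In all, 4 of the 20 higher genes were more than 3-fold below the mean of the other lung libraries in replicate 3 and 11 were above both. The higher count was 10 with lung replicate 3 as the lone lung library, 11 without bone marrow replicate 1 or 2 and 12 without lung replicate 2.

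Immediate early genes, which cells switch on within minutes of a stimulus, were called at about the rate of all genes, with 7 of 36 higher and 7 lower. The nuclear receptors of the Nr4a family were higher. Nr4a3 was at 55.8, 15.5 and 29.3 CPM in marrow, 63.4, 10.1 and 4.39 CPM in blood and 1064, 1429 and 2362 CPM in lung (5.59 ± 1.06, adjusted p = 0.00374). Nr4a2 rose from 11.2, 7.68 and 4.78 to 68.4, 126 and 196 CPM (4.04 ± 0.71, adjusted p = 0.00238) and Nr4a1 from 1122, 745 and 1099 to 2005, 2607 and 3001 CPM (1.36 ± 0.27, adjusted p = 0.00406). In all 3 genes the lung libraries lay above every marrow library. Klf2, a transcription factor that restrains myeloid activation, was lower, at 2863, 2693 and 2992 CPM in marrow, 1105, 1405 and 2028 CPM in blood and 391, 319.9 and 280 CPM in lung (-3.11 ± 0.28, adjusted p = 6.94e-05). Rhob, a small GTPase gene, fell from 898, 1056 and 1138 to 113, 94.7 and 70.3 CPM (-3.48 ± 0.33, adjusted p = 9.62e-05). Both were lower than in blood as well (Klf2 -2.20, adjusted p = 0.000801, and Rhob -2.28, adjusted p = 0.00141). Upper-quartile scaling gave 12 higher.

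Dusp16, a phosphatase of the stress kinases JNK and p38, showed one of the largest rises. It was at 7.91, 4.35 and 6.98 CPM in marrow, 53.1, 42.5 and 47.2 CPM in blood and 549, 499 and 984 CPM in lung, 106-fold higher than in marrow (6.72 ± 0.39, adjusted p = 1.2e-05), with blood between. AW011738 stood at 5.34, 5.23 and 6.09 CPM in marrow and 104, 182 and 322 CPM in lung (5.19 ± 0.40, adjusted p = 3.66e-05). Of 22 genes of the cAMP response, 6 were higher and 6 lower, beside 15.6% and 22.6% of all genes. Crem, a cAMP-responsive transcription factor, rose from 10.01, 7.49 and 8.62 to 113, 102 and 203 CPM (16-fold, adjusted p = 3.65e-05), with blood at 5.38, 4 and 3.58 CPM. Pde4b, a cAMP phosphodiesterase, rose from 459.9, 286 and 359.8 to 934, 1034 and 1658 CPM (1.71 ± 0.30, adjusted p = 0.00246). Rgs2, a regulator of G protein signalling, fell from 849, 882 and 924 to 309, 263 and 402 CPM (-1.45 ± 0.21, adjusted p = 0.000836, or 0.0554 with lung replicate 3 alone). With lung replicate 3 as the lone lung library 8 members were higher and 2 lower.

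Pattern recognition genes leaned higher, 17 of 38 with 11 lower, beside 15.6% and 22.6% of all genes. Of the 17, 16 were highest in lung replicate 3, beside the 42.4% of all genes called higher. Clec4n, which encodes the fungal receptor dectin-2, was at 5.36, 2.8 and 6.95 CPM in marrow, 27.9, 16.4 and 24 CPM in blood and 86.5, 95.8 and 193 CPM in lung (4.64 ± 0.45, adjusted p = 0.000106). Mefv, the gene of the inflammasome sensor pyrin, was at 19.7, 20.1 and 25.5 CPM in marrow, 115, 141 and 183 CPM in blood and 193, 201 and 381 CPM in lung (3.57 ± 0.32, adjusted p = 6.94e-05). Nlrc4, another inflammasome gene, rose from 0.435 to 0.954 to 5.39 to 8 CPM (3.297 ± 0.56, adjusted p = 0.00197). The lower count was 5 with lung replicate 3 alone.

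In the fit of all 9 libraries interferon-stimulated genes did not move as a group. Of 45 tested, 7 were higher and 8 lower, beside 15.6% and 22.6% of all genes, with a median of 0.12. The median depended on the lung libraries. It was 0.70 with lung replicate 3 as the lone lung library (beside -0.08 for all genes) and -0.18 without lung replicate 3. Without lung replicate 1 the higher count was 10. Isg15, a ubiquitin-like modifier, rose from 19.95, 31.9 and 35.3 to 145, 176 and 288 CPM (2.802 ± 0.30, adjusted p = 0.000168). Ifitm1 and Gbp5 changed by 2.06 ± 0.25 and 2.21 ± 0.31 (adjusted p = 0.000308 and 0.000683). Ifitm6, a membrane protein gene of the interferon-induced family, was at 662, 745 and 911 CPM in marrow and 40.7, 45.4 and 69.2 CPM in lung (-3.900 ± 0.25, adjusted p = 2.11e-05). The lower count was 13 with the replicate block, 9 without bone marrow replicate 1, 11 without lung replicate 3 and 4 or 5 without any other 1 library, and upper-quartile scaling gave 12 higher. Class I antigen presentation had 4 of 19 higher and 1 lower, beside 15.6% and 22.6% of all genes. H2-Q4, a class I heavy chain of a family of near-identical genes, changed by 1.27 ± 0.15 (adjusted p = 0.000262), and Nlrc5, their transactivator, by 1.005 ± 0.19 (adjusted p = 0.00322). Its higher count was 8 with upper-quartile scaling, and 2 without bone marrow replicate 1 or 2 or any 1 blood library.

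Genes of cell survival and death were lower in 13 of 34 and higher in 7, beside 22.6% and 15.6% of all genes. Beside the Bcl2a1 genes, Bcl2l11, which encodes the pro-apoptotic protein Bim, was higher. It was at 89.6, 60.7 and 83.4 CPM in marrow, 87, 101 and 116 CPM in blood and 519, 638 and 1021 CPM in lung (3.22 ± 0.30, adjusted p = 7.88e-05). Genes of opposite action on cell death were therefore both higher. The lower count was 5 with lung replicate 3 alone and 8 with upper-quartile scaling.

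Glycolysis and hypoxia genes were lower in 16 of 33 and higher in 5, beside 22.6% and 15.6% of all genes. Hk2, a hexokinase that starts glycolysis, was at 113, 132 and 109 CPM in marrow, 107, 97.2 and 111 CPM in blood and 21.2, 21 and 20.2 CPM in lung (-2.51 ± 0.13, adjusted p = 9.14e-06). Blood was near marrow here, and lung was -2.33 against blood (adjusted p = 0.000129). Pgk1 and Pgam1, enzymes of the later steps, fell in a different order. Pgk1 was at 402, 406 and 538 CPM in marrow, 107, 86.4 and 112 CPM in blood and 85.9, 73.4 and 115 CPM in lung (-2.29 ± 0.22, adjusted p = 0.000102). Pgam1 changed by -2.27 ± 0.29 against marrow (adjusted p = 0.000432) and by -0.19 against blood (adjusted p = 0.663). Vegfa, a hypoxia-responsive growth factor, rose from 193, 201 and 226 to 538, 634 and 854 CPM (1.71 ± 0.49, adjusted p = 0.0232), a call lost in 5 of 9 fits that left out 1 library (adjusted p up to 0.0839, without bone marrow replicate 2). Lung replicate 3 alone gave 6 lower members. The higher count was 2 without bone marrow replicate 1 or 2 and 3 without bone marrow replicate 3, blood replicate 1 or 2, or lung replicate 2.

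Iron and oxidative defence genes were higher in 9 of 28 and lower in 6, beside 15.6% and 22.6% of all genes. Slc7a11, the cystine transporter that feeds glutathione synthesis, was at 97.4, 78.6 and 78.7 CPM in marrow, 169, 126 and 105 CPM in blood and 1152, 1523 and 2266 CPM in lung (4.28 ± 0.32, adjusted p = 3.32e-05). Txnrd1, thioredoxin reductase, rose from 90.1, 56.2 and 74.9 to 563, 602 and 834 CPM (3.18 ± 0.25, adjusted p = 3.71e-05). Lysosome and autophagy genes had 9 of 36 higher and 7 lower, beside 15.6% and 22.6% of all genes. With the replicate block 12 of them were lower. Ctsz, a cathepsin, rose from 67.2, 66.8 and 94.2 to 362, 306 and 521 CPM (2.38 ± 0.25, adjusted p = 0.000143). Wipi1, an autophagy gene, fell from 42.3, 47.4 and 51.7 to 7.97, 8.57 and 9.16 CPM (-2.46 ± 0.16, adjusted p = 2.26e-05). Without lung replicate 3, 14 lysosome and autophagy genes were lower, and with that library as the lone lung library 2 were.

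Eicosanoid and lipid mediator genes were higher in 8 of 25 and lower in 9, beside 15.6% and 22.6% of all genes. Lta4h, the enzyme that makes leukotriene B4, fell from 161, 168 and 172 to 33.8, 38 and 37.8 CPM (-2.19 ± 0.12, adjusted p = 9.14e-06), in the same direction as the receptor gene Ltb4r1. Ltc4s, the leukotriene C4 synthase gene, was at 0.0715, 0.0588 and 1.07 CPM in marrow and 17.7, 12 and 2.43 CPM in lung, lowest in lung replicate 3 (adjusted p = 0.0112, and 0.145 with that library alone). Hdc, which makes histamine and is abundant in neutrophils, rose from 1712, 1505 and 2215 to 6394, 5905 and 10975 CPM (2.099 ± 0.35, adjusted p = 0.00174).

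Heat shock and unfolded protein genes were higher in 18 of 27 and lower in none, beside 15.6% and 22.6% of all genes. The largest rises were uneven between lung libraries. Hspa1a, an inducible Hsp70 gene, was at 25.5, 22.3 and 92 CPM in marrow and 1589.8, 1097 and 216 CPM in lung, lowest in lung replicate 3 (4.38 ± 0.95, adjusted p = 0.00739, or 0.113 with lung replicate 3 alone). Its near-identical copy Hspa1b was at 1887, 1292 and 248 CPM in lung, and Hspb1 at 38.5, 15.7 and 4.47 CPM. In 7 of the 18 genes lung replicate 3 was more than 3-fold below the mean of replicates 1 and 2. These 7 were high where lung tissue markers were high, and the part of those cells in the result was not tested. Only 8 were higher without bone marrow replicate 2 or 3, 11 without lung replicate 1 and 7 with lung replicate 3 as the lone lung library. Limma-voom gave 11.

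Ribosomal protein genes were higher in 35 of 82 and lower in none, beside 15.6% and 22.6% of all genes. Their median was 0.64. Their summed level was 20334, 15295 and 13357 CPM in lung and 11079, 11090.4 and 10894 CPM in marrow, so the lung replicates differed among themselves by more than the marrow ones. Rpl14 was at 61.9, 55.9 and 39.5 CPM in marrow and 162, 126 and 79.5 CPM in lung (1.22 ± 0.32, adjusted p = 0.0149, or 0.0574 without bone marrow replicate 3). DESeq2 put 62 higher, upper-quartile scaling 55 and the 6 libraries alone 22. Leaving out marrow replicates 1, 2 and 3 in turn gave 14, 11 and 14, and leaving out the lung replicates 19, 21 and 57. Nuclear genes of the respiratory chain were lower in 15 of 76 and higher in 1, both below the shares of all genes (22.6% and 15.6%). Ndufv3, a complex I gene, fell from 32.7, 43.3 and 44.9 to 12.9, 11.4 and 8.22 CPM (-1.89 ± 0.19, adjusted p = 0.000137). With upper-quartile scaling the respiratory chain split changed to 9 higher and 9 lower, so no direction is given for it, and without bone marrow replicate 3 it was 10 lower and none higher.

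Cell cycle genes were lower in 7 of 53 and higher in 3, both below the shares of all genes (22.6% and 15.6%). Their median change was nevertheless -0.81 beside 0.06 for all genes, and 41 of the 53 changes were below 0. With lung replicate 3 as the lone lung library the median was -1.78, beside -0.08 for all genes. The median ratio of lung replicate 3 to the mean of replicates 1 and 2 was 0.29 in this list. Mki67, a proliferation marker, was at 57.9, 43.5 and 10.8 CPM in marrow and 23.4, 31.5 and 22.6 CPM in lung, with overlapping groups (-0.53 ± 0.63, adjusted p = 0.532). The deposited RSEM counts put Mki67 at a mean of 67.3 CPM in lung, above its marrow mean of 37.4 CPM, so no direction is given for it. Cdc45, a replication factor, fell from 19, 21.6 and 24.6 to 3.67, 3.59 and 5.93 CPM (-2.31 ± 0.23, adjusted p = 0.000125) and Cdk2 from 43.8, 50.1 and 60.9 to 15.6, 16.2 and 13.5 CPM (-1.77 ± 0.16, adjusted p = 6.96e-05). The replicate block gave 16 lower members. Only 1 was higher without bone marrow replicate 2 or 3 or lung replicate 2. Circadian clock genes gave 1 higher (Rora) and 1 lower (Csnk1e) of 21. Neither of these held in every fit without 1 library (adjusted p up to 0.132 without bone marrow replicate 3 for Rora, and 0.12 without blood replicate 1 for Csnk1e). The higher count was 3 with the block, 8 with DESeq2, and 0 to 6 without 1 library, the last without lung replicate 3. The plot of lists sets all 26 side by side.

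**Figure D4:**
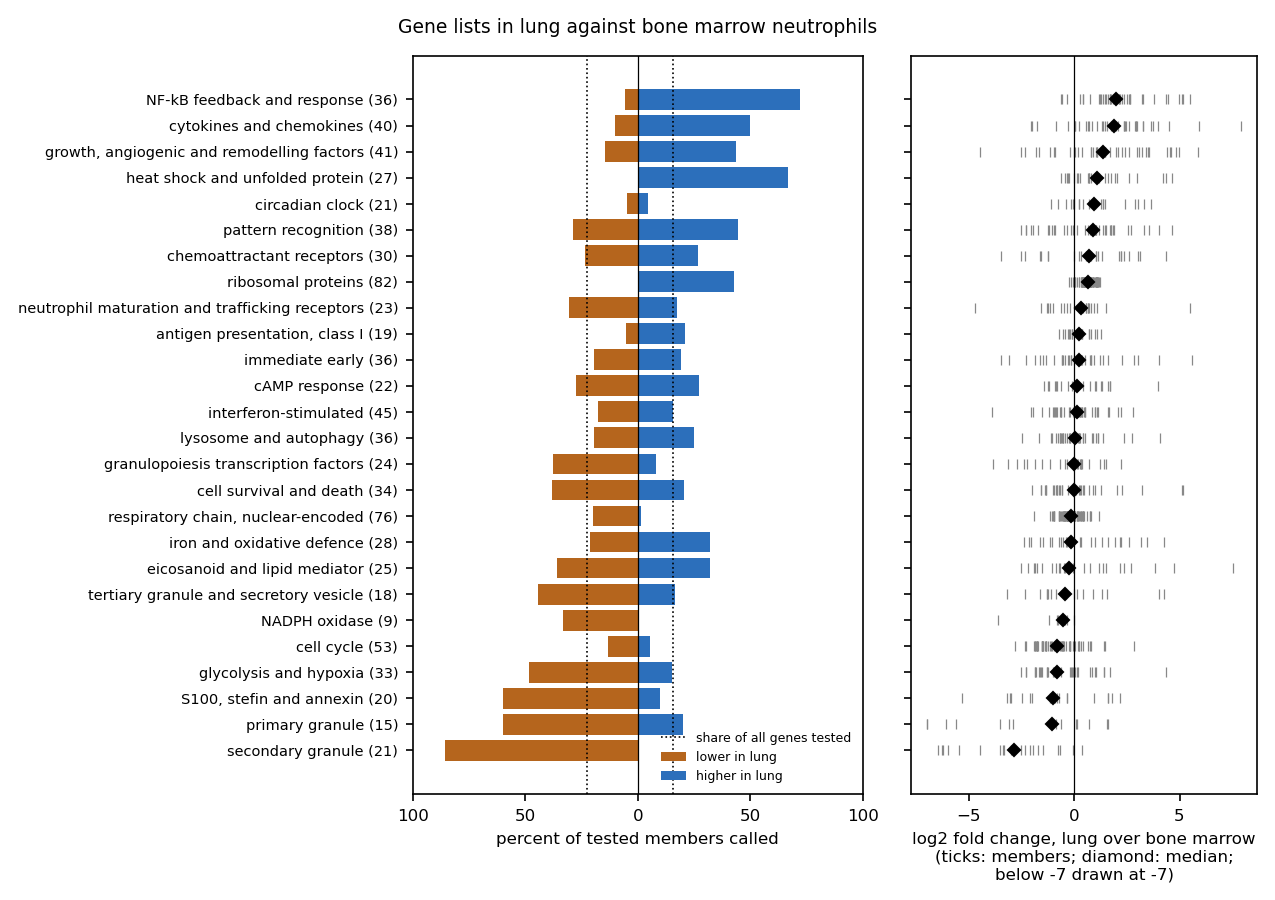
Left, percent of tested members called lower (brown) or higher (blue) in lung for 26 gene lists, with the number tested in brackets and dotted lines at the shares of all genes (22.6% and 15.6%). Right, log2 fold changes of members (ticks) and their median (diamonds), from -2.86 for secondary granule genes to 1.98 for NF-kB genes.

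Marker genes of other cells were among the genes higher in lung. Of 2108 called higher, 563 (26.7%) had a level in lung replicate 3 more than 3-fold below the mean of replicates 1 and 2, beside 30 of the 3050 called lower, 27.9% of the genes not called and 21.6% of all genes tested. The share was thus much the same in genes called higher and in genes not called. The 3-fold limit was chosen after the data were seen. All 15 higher fibroblast and smooth muscle genes were among them, as were 7 of 7 higher epithelial and 9 of 12 higher endothelial genes. Dcn, the matrix protein decorin, was at 0.31, 0.96 and 15.2 CPM in marrow and 279.5, 164 and 12.9 CPM in lung, so marrow replicate 3 exceeded lung replicate 3 (adjusted p = 0.0328, 0.111 with the block). Krt19, an epithelial keratin, was at 28.8, 32.2 and 1.46 CPM in lung, Car4, of lung capillaries, at 33.3, 36.5 and 2.04 CPM, and Inmt, of lung stroma, at 75.2, 25.9 and 3.45 CPM. Mgp, a matrix protein gene, and Plet1 were at 154, 61.5 and 6.85 and 57.7, 70.5 and 6.9 CPM. The rule for the largest rises named all of these, though with lung replicate 3 alone none was called (adjusted p = 0.579, 0.219, 0.453, 0.594 and 0.125 in that order). With the block Krt19, Inmt and Mgp were not called either (adjusted p = 0.138, 0.0727 and 0.107). Without lung replicate 1 the adjusted p of Inmt and Mgp was 0.104 and 0.157, and that of Krt19 was 0.0947 without bone marrow replicate 1.

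Counts of the tissue lists moved with single libraries (15.6% of all genes tested were called higher). Fibroblast genes were 15 of 23 higher, but 2 with the block or without bone marrow replicate 1 or lung replicate 1. They were 1 without bone marrow replicate 2, 4 without lung replicate 2, 8 without blood replicate 2 and 0 with lung replicate 3 alone. Endothelial genes were 12 of 21 higher, 4 without bone marrow replicate 2, 6 without bone marrow replicate 1, and 5 and 7 without lung replicates 1 and 2. Epithelial genes were 7 of 22 higher, 3 with the block or without bone marrow replicate 1, 1 without bone marrow replicate 2 or lung replicate 1, 2 without lung replicate 2 and 12 without bone marrow replicate 3. With lung replicate 3 as the lone lung library 2 endothelial genes and 1 epithelial gene were higher.

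Macrophage, dendritic cell and class II genes were also higher in lung, 16 of 23 and 14 of 18, beside 15.6% of all genes. Their sums were 1742, 1997 and 1125 CPM and 3122, 2510.2 and 1120.4 CPM in lung against 1358 to 1862 and 165 to 256 CPM in marrow, so the macrophage sums overlapped. H2-Eb1, a class II chain, was at 17.6, 7.04 and 24.6 CPM in marrow, 158, 166 and 21.8 CPM in blood and 443, 345 and 202 CPM in lung (4.33 ± 0.80, adjusted p = 0.00321). Marco, a receptor of alveolar macrophages, was at 31.8, 23.6 and 0.745 CPM in lung (adjusted p = 0.0197, 0.0667 with the block and 0.0654 without bone marrow replicate 3). Without bone marrow replicate 2 the macrophage count was 9 and the class II count 8, and lung replicate 2 left out gave 10 macrophage genes. With lung replicate 3 alone they were 8 and 5. B cell genes were 3 of 19 higher, near the 15.6% of all genes. Their higher count was 12 with the block or without lung replicate 3, 5 without blood replicate 3, and 1 without bone marrow replicate 2. T and NK cell genes were 0 of 25 in either direction by edgeR's test, with 4 higher and 2 lower with the block and 1 of each with DESeq2. Erythroid genes were lower in 12 of 17, beside 22.6% of all genes. Epb42, a red cell membrane gene, had 602, 839 and 24 reads in marrow and none in any lung library, and limma-voom called 1 erythroid gene lower. Of 14 eosinophil, basophil and mast cell genes tested, 4 were higher and 4 lower, beside 15.6% and 22.6% of all genes. Their sums, which include Hdc, were 1545 to 2247 CPM in marrow and 5970 to 11028.5 CPM in lung. The eosinophil genes Epx and Prg2 were nearly confined to bone marrow replicate 1, with marrow levels of 15.7, 0.804 and 0.307 and 50.3, 3.9 and 1.33 CPM.

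Growth, angiogenic and remodelling genes were higher in 18 of 41 and lower in 6, beside 15.6% and 22.6% of all genes. In 12 of the 18 higher genes lung replicate 3 was more than 3-fold below the mean of the other lung libraries. Timp3, a protease inhibitor, was at 111, 51.8 and 5.86 CPM in lung, and Mmp2, a matrix protease, at 51.1, 34.3 and 2.33 CPM. Neither was called with the block (adjusted p = 0.0852 and 0.0922). Timp3 was not called without bone marrow replicate 2 (0.107), nor Mmp2 without lung replicate 1 (0.0923). Lung tissue markers were low in the same library, and their part in these values was not tested. Leaving out marrow replicates 1, 2 and 3 in turn gave 7, 4 and 10 higher members, leaving out lung replicates 1 and 2 gave 10 and 8, and lung replicate 3 alone gave 5. Most higher NF-kB and pattern recognition genes lay on the other side, above the level of the other lung libraries in replicate 3, as the plot of that ratio shows.

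**Figure D5:**
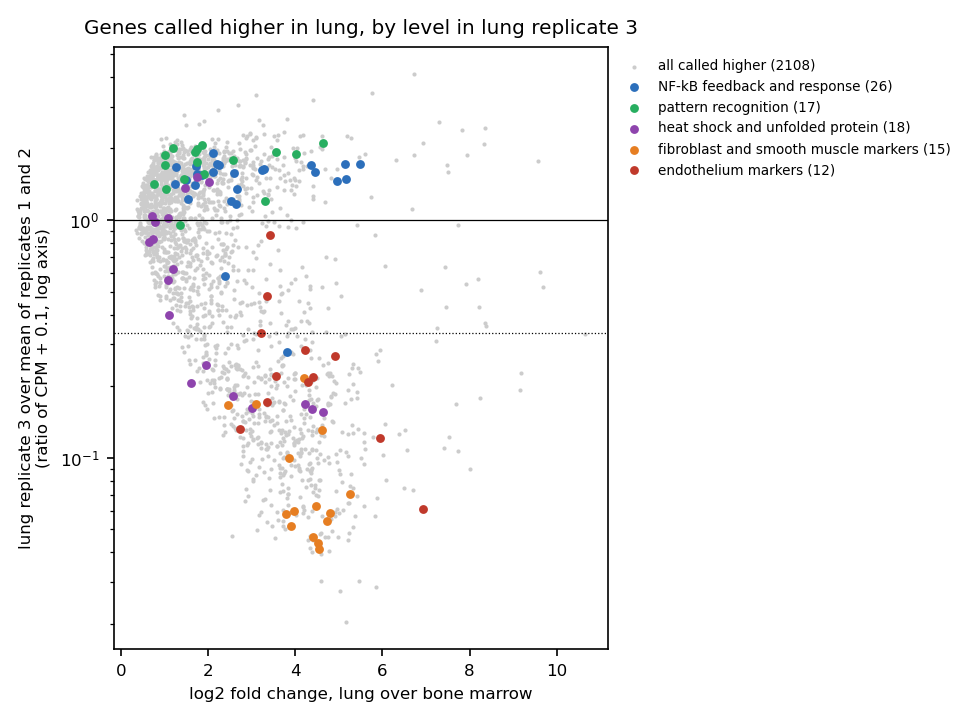
For the 2108 genes called higher in lung, the ratio of lung replicate 3 to the mean of lung replicates 1 and 2 (CPM + 0.1, log y axis) against the log2 fold change of lung over bone marrow (x axis), with 5 lists coloured and a dotted line at 3-fold below. Of 26 NF-kB genes, 24 lie above both other lung libraries, and all 15 fibroblast and smooth muscle genes lie under the dotted line.

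Lung replicate 3 lay beyond all 3 marrow libraries in 1887 of the 2108 genes called higher and in 3036 of the 3050 called lower. It is among the lung libraries that gave these calls, so the counts are no separate check of them. Of the genes called higher 875 were called in all 9 fits that left out 1 library, and 1943 of those called lower.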

How the data were processed

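The authors deposited whole read counts and FPKM per RefSeq transcript for all 9 libraries, per the file headers. The submitters' processing notes list DESeq2, RSEM, StringTie 2.1.3b, STAR and Bowtie2, with build mm10 and no roles. FPKM equalled counts over transcript length and a constant. Deposited RSEM expected counts for lung and blood served only to check lung levels: 97.9% of 7866 genes at 5 CPM or more were within 1 on the log2 scale. The series table held 1.87 to 1.90 times the RSEM totals, so reads of a pair may count separately, and precision from counting may be overstated.

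Counts were summed by Entrez gene (24532 genes). Genes passing filterByExpr (13510) in all 9 libraries were fitted as group means with edgeR 4.0.16 (R 4.3.3, limma 3.58.1, DESeq2 1.42.0), robust quasi-likelihood, TMM scaling, Benjamini-Hochberg threshold 0.05. SE is the absolute log2 fold change over the square root of F. The method was tested on simulated data. Alternatives were other scalings, filters, tools, the block and single libraries left out.

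Titles share replicate numbers. Deviations of same-numbered lung and marrow libraries from their tissue means correlated at 0.153, 0.174 and 0.186, above a threshold of 0.1. Marrow 1 with lung 2 also passed it (0.145), and the other differently numbered pairs were below 0. Deviations from a tissue mean sum to 0, so positive pairs force others below 0. The negative values are therefore no separate evidence of pairing. Correlations this weak are a hint from the data alone and cannot decide whether equal numbers mark paired samples. The tests reported use no block unless the block is named.

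Members and lists were chosen with earlier results of these data known. Named genes are the 12 largest rises and falls among called genes with at least 20 CPM and no overlap, 17 followed genes, and 2 to 4 of the largest called members per list with at least 5 CPM. The text omits some of these.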

Additional observations from a re-analysis of the deposited data

How the results depend on the processing

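Leaving out 1 library gave 3258 to 6984 called genes, 961 to 3339 higher and 2169 to 3645 lower. The lowest counts called and higher came without bone marrow replicate 2 and the highest without lung replicate 3. The higher count was 1255 without bone marrow replicate 1, 1400 without lung replicate 1 and 1316 without lung replicate 2. With lung replicate 3 as the lone lung library, assumed to vary like the other groups, 3120 genes were called, 1696 higher and 1424 lower. Other scalings, filters and tools kept each of the 3 counts within 1.5 times. The replicate number as a block gave 5973 calls, 2454 higher. It changed the calls of 19 of 159 named genes, given in the text for those described, and no other named call. No named gene changed direction in any of 21 alternatives, and 76 of 153 called ones stayed called in all. The cause of these shifts was not tested. Depth limits genes near 3 reads (0.0528 to 0.0714 CPM).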

Other observations

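Transcript use within genes was looked at after the gene-level values were seen, with no test. The share of a gene's summed FPKM held by each RefSeq transcript was compared in 1633 genes with several transcripts and at least 20 CPM in both tissues. In 13 of them a transcript's lung shares all lay at least 25 percentage points from its marrow shares. Il1rn, the interleukin 1 receptor antagonist, was among them. Its transcript NM_001159562 held 45.1%, 49.2% and 46.2% of the gene in marrow, 31.4%, 44.5% and 43.5% in blood, and 7.45%, 7.33% and 6.997% in lung. The transcript NM_001039701 held 54.0%, 49.7% and 53.3% in marrow and 91.6%, 91.5% and 92.0% in lung. The 3 lung libraries, replicate 3 included, differed by less than 1 point. Runx1, a transcription factor of blood cells whose summed level did not pass (0.32 ± 0.16), also shifted. Its transcript NM_001111022 held 39.0%, 36.7% and 36.0% in marrow, 17.6%, 12.4% and 9.91% in blood, and 9.60%, 7.78% and 4.71% in lung. In Maff the transcript NM_010755 went from 59.9%, 61.3% and 52.3% in marrow to 92.2%, 93.3% and 91.5% in lung. How reads were split among transcripts is not stated in the labels or headers, so these shares depend on that step.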
